A study of Mus musculus with 6 samples.

Results

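Transcripts for glucose uptake, glycolysis and the entry of pyruvate into the mitochondrion were examined in pressure-loaded mouse hearts with and without extra adenosine A2a receptor. The set holds 40 genes chosen by name: glucose transporters, the enzymes from hexokinase to lactate dehydrogenase, the enzymes that make and remove fructose 2,6-bisphosphate, lactate and pyruvate carriers, and pyruvate dehydrogenase with its kinases and phosphatases. A gene was measured where a row of the value table carried its symbol and no other, and the row of highest mean over the 6 arrays stood for it. Of the 40 genes, 35 had such a row, out of 19938 genes in the whole table. Gpi1, Eno1, Pfkfb1 and Mpc2 had no row used here, and the 25 rows that list Gapdh also list other symbols, so these 5 genes were not analysed.

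Glucose enters a cell through facilitative transporters and is split to pyruvate by glycolysis, with phosphofructokinase as the main controlled step. Pyruvate then either becomes lactate or is carried into the mitochondrion, where the pyruvate dehydrogenase complex turns it into acetyl-CoA; pyruvate dehydrogenase kinases switch the complex off and its phosphatases switch it on. The adult heart burns mostly fatty acids, and the loaded, enlarged ventricle is known for leaning more on glucose.

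Hearts of male FVB mice, an albino inbred strain, were used. Wild-type mice (n = 3) and littermates carrying an A2a-R transgene (n = 3) were both operated on at 8 weeks of age by transverse aortic constriction (TAC), a narrowing of the aorta that loads the left ventricle with pressure, and hearts were taken after 14 weeks. The adenosine A2a receptor couples to a G protein that raises cyclic AMP. Its over-expression was inducible and restricted to the heart; the sources used here name neither the promoter that drives it nor the time of induction. All 6 hearts had TAC, and unoperated hearts were not analysed here. Each heart was hybridised to 1 Affymetrix Mouse Gene 1.0 ST array, and values are log2 intensities after RMA. Adora2a, the gene of the transgene, had no row of its own, so the genotype labels were not checked against it.

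Over 21789 rows, which are not independent replicates, Pearson's r was 0.9958 to 0.9973 between hearts of one genotype and 0.9926 to 0.9957 across genotypes. Nothing in the labels says more of the replicates than that each is 1 heart. Cardiomyocyte markers, 10 of 10 measured, had gene means of 12.39 to 14.28, where the median gene lay at 7.10. Their median difference was -0.03, with 7 of 10 lower and 3 higher. Nppa, the gene of atrial natriuretic peptide, was the 1 called, at -1.18 (limma adjusted p = 0.0456). Ryr2, the calcium release channel, was at 0.25 (limma adjusted p = 0.149). Nppa, Myl3 and Mb were the 3 lower without overlap (30%, against 12.4% of all genes), and Ryr2 the 1 higher (10%, against 7.79%). The list mean of macrophage and monocyte markers lay between 8.50 and 8.66 in the wild-type group and between 8.85 and 8.99 in the transgenic group. Of these markers 10 of 10 were higher, 8 without overlap (80%, against 7.79% of all genes), and 0 were called. Their differences ran from 0.003 for Cd163 to 0.617 for Cd68, a lysosomal protein of macrophages. Cd68 read 8.30, 8.78 and 8.54 against 9.04, 9.19 and 9.24. Endothelial markers were lower in 9 of 10 genes and 0 were called. Of these genes 3 were lower without overlap (30%, against 12.4% of all genes). Their list means lay between 10.18 and 10.29 in the wild-type group and between 10.06 and 10.23 in the transgenic group. The receptors Kdr and Flt1 were at -0.14 and -0.17. Acta2, smooth muscle actin, was called at 0.73 (limma adjusted p = 0.0106) and Alas2, the heme enzyme of red cell precursors, at -0.77 (limma adjusted p = 0.00486), each the 1 call of its list. Of the 10 smooth muscle and pericyte markers 6 were higher and 4 lower, with a median difference of 0.05. Of the 4 measured red cell markers 1 was higher, 2 were lower and 1 was equal, with a median difference of -0.01. No marker was at 0 on this scale, where even silent genes read as dim. The part of these cells in the values below was not tested.

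None of the 35 genes was called between transgenic and wild-type hearts, and each differed by at most 0.30 on the log2 scale. A call required a limma p-value below 0.05 after Benjamini-Hochberg adjustment over all tested rows; 0.959% of the rows and 0.993% of the genes passed it. The 95% interval of the log2 difference lay inside -0.5 to 0.5 for 35 of 35 genes, against 94.3% of all genes. The bound farthest from 0 was -0.465, for Pdp2. The median difference was 0.03 (quartiles -0.04 and 0.09), beside -0.01 (quartiles -0.08 and 0.06) over all genes; 20 genes were higher, 14 lower and 1 equal in the mean. An unadjusted p below 0.05 was reached by 4 of the 35 (11.4%), against 14.6% of all genes. These were Pfkfb2 and Pdk1, lower in transgenic hearts, and Pkm and Eno3, higher. In whole-heart RNA fewer cells of a type and less RNA per cell cannot be told apart.

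**Figure D1:**
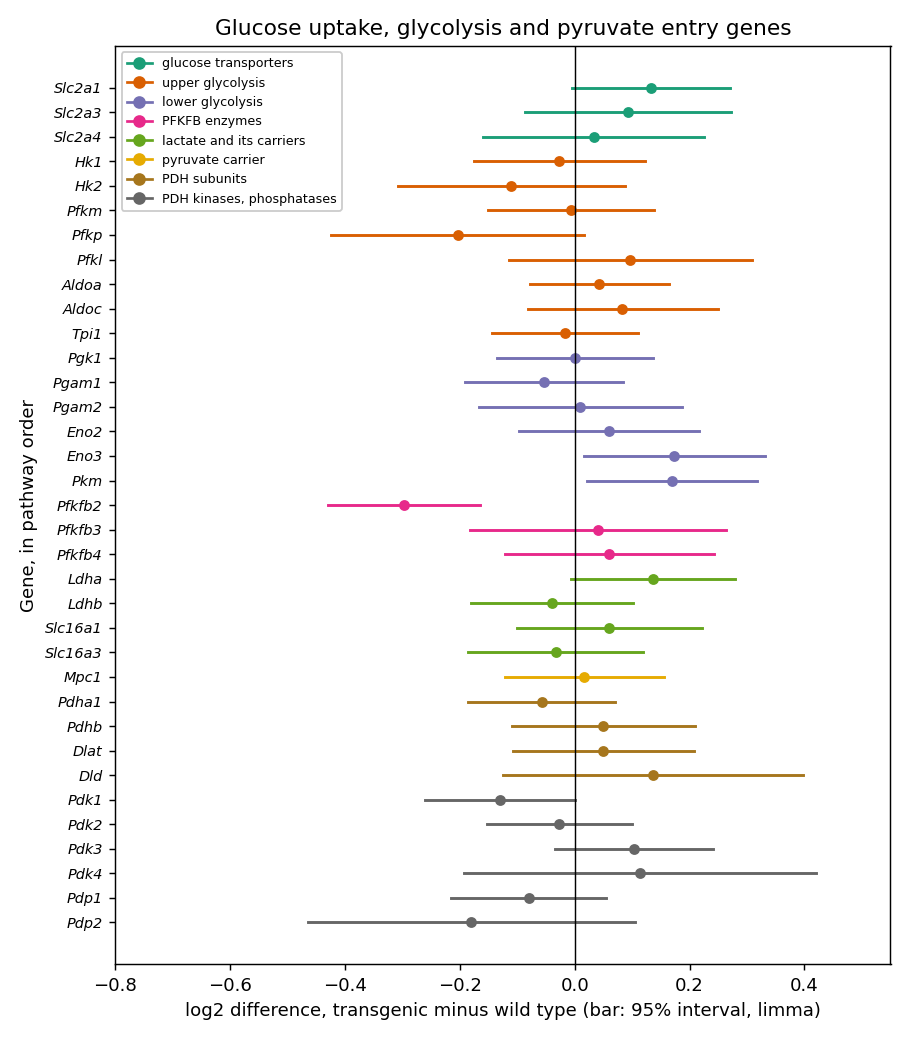
The log2 difference, transgenic minus wild type, is on the horizontal axis for the 35 measured genes in pathway order, each point with its 95% interval from limma (n = 3 hearts per group) and coloured by role. Most intervals span 0; that of Pfkfb2 lies farthest below it, from -0.43 to -0.16, and those of Eno3 and Pkm lie just above it.

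Pfkfb2 had the smallest p of the set. It encodes the heart form of the two-way enzyme that makes and breaks fructose 2,6-bisphosphate, the strongest activator of phosphofructokinase. Its log2 value was 10.46, 10.54 and 10.45 in the wild-type hearts and 10.22, 10.14 and 10.20 in the transgenic hearts. The groups did not overlap, and the spread within each was small: 10.48 ± 0.05 against 10.19 ± 0.04 (SD, n = 3 each). The difference was -0.30 ± 0.06 (SE; unadjusted p = 0.000836), a 1.23-fold lower level, with a limma adjusted p of 0.066, just short of the threshold. Over 16 other settings the difference stayed between -0.31 and -0.27 and the limma adjusted p ran from 0.00836 to 0.22. It passed 0.05 in 3 of them: without the dimmest 40% of rows (0.0207), with a trended and robust variance prior (0.00836) and with array weights (0.0444). In these settings 3.77%, 2.66% and 1.38% of all rows passed, in that order, against 0.959% in the reported analysis. Leaving out any 1 heart gave Pfkfb2 a limma adjusted p of 0.13 to 0.22.

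The 2 other measured enzymes of this family overlapped between the groups. Pfkfb3, the inducible form with a high kinase activity, lay at 7.29, 7.49 and 7.14 in wild-type hearts and 7.36, 7.24 and 7.44 in transgenic hearts. Its difference was 0.04 ± 0.10 (SE) and the groups overlapped throughout. Pfkfb4, best known from testis and tumours, differed by 0.06 ± 0.08. Whether the change of Pfkfb2 differs from theirs was not tested.

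The stretch before the transcription start is printed for the 4 genes with an unadjusted p below 0.05, so that the letters near their starts can be read beside their values. Sequences are RefSeq's on build GRCm38.p6, 5′ to 3′, and cover 250 bases up to the start. The window listed first is shown where a gene has several (3 for Pfkfb2, 2 for Pdk1 and 2 for Pkm). Capitals mark ACGTG or GCGTG, the core that hypoxia-inducible factors bind, and TGACG, the half-site of cAMP-responsive factors, on either strand. The windows lie at chr1:130715822-130716071 on the minus strand for Pfkfb2, chr2:71872974-71873223 on the plus strand for Pdk1, chr11:70656926-70657175 on the plus strand for Eno3 and chr9:59656326-59656575 on the plus strand for Pkm.
Pfkfb2: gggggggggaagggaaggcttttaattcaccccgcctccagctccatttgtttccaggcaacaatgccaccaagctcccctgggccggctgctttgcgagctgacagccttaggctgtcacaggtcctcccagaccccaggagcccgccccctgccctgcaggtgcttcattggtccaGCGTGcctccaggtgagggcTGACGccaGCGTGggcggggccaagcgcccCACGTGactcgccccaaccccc
Pdk1: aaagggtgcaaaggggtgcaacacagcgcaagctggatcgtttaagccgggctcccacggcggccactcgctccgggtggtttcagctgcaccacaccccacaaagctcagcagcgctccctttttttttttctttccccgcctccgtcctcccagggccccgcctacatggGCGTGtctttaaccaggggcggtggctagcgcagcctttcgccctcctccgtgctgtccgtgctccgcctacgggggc
Eno3: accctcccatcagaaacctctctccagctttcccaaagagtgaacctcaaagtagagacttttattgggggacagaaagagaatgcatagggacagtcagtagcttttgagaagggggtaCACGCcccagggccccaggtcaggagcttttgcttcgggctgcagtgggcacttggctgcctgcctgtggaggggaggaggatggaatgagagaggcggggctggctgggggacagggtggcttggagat
Pkm: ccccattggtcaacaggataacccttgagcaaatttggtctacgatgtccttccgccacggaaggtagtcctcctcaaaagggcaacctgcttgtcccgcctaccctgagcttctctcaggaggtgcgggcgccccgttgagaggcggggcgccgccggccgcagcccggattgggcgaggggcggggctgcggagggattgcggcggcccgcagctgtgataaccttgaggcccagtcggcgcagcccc

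The Pfkfb2 window held 4 matches to the hypoxia core, a pair of which are the overlapping strands of a single CACGTG, the E-box, and it held 1 TGACG. The Pdk1 and Eno3 windows shown held 1 hypoxia core each, and the Pkm window shown held 0. Of the windows not shown, those of Pfkfb2 held 1 core each and 0 TGACG, that of Pdk1 held 0 cores and that of Pkm held 1. Windows were found for 37 of the 40 listed genes. A hypoxia core was present in 41 of their 57 windows (71.9%), against 38.6% of all 32851 windows of that length, and TGACG in 11 (19.3%), against 17.8%. CACGTG, which contains ACGTG, was in 7 (12.3%), against 6.02%, and the full cAMP response element TGACGTCA in 1 (1.75%), against 1.55%. Windows of a gene can overlap, and base composition was not balanced, so these shares describe letters only. Hif1a, the oxygen-regulated factor that binds the core, had log2 values of 10.12, 9.88 and 9.78 in wild-type and 9.61, 9.56 and 9.56 in transgenic hearts, a difference of -0.35 ± 0.09 (SE, limma adjusted p = 0.129). A link between Hif1a and the values of these genes was not tested.

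Among the glucose transporters, Slc2a1, which encodes the basal carrier GLUT1, separated the groups. It read 9.47, 9.36 and 9.49 in wild-type hearts and 9.55, 9.57 and 9.60 in transgenic hearts, a difference of 0.13 ± 0.06 (SE, limma adjusted p = 0.349). Slc2a4, the insulin-responsive carrier GLUT4 of muscle and fat, read 11.41, 11.60 and 11.72 against 11.58, 11.66 and 11.59. The transgenic hearts lay inside the wild-type range, and the mean difference of 0.03 ± 0.08 became -0.05 without wild-type replicate 1. Slc2a3, the high-affinity carrier GLUT3, was dim and differed by 0.09 ± 0.08.

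The enzymes of upper glycolysis showed no called difference in 8 measured genes. Hk2, the muscle hexokinase that commits glucose to the cell, read 9.99, 10.22 and 10.31 in wild-type hearts and 10.08, 10.09 and 10.02 in transgenic hearts. The transgenic values were tightly grouped within the wild-type range, with a difference of -0.11 ± 0.09 (SE). Without wild-type replicate 1, the lowest of its group, it was -0.20 (unadjusted p = 0.0158, limma adjusted p = 0.241), and without wild-type replicate 3, the highest, it was -0.04 (limma adjusted p = 0.884). Pfkm, the muscle subunit of phosphofructokinase, read 11.94, 12.09 and 12.10 against 12.04, 12.03 and 12.04, a difference of -0.01 ± 0.06. Pfkp, the platelet-type subunit, read 9.13, 8.92 and 9.23 against 8.91, 8.76 and 9.0. All but 1 of its wild-type values lay above the highest transgenic value, and the difference was -0.20 ± 0.10 (limma adjusted p = 0.375). Pfkl, the liver-type subunit, differed by 0.10 ± 0.09, and by 0.01 without wild-type replicate 1. Aldoa, the muscle aldolase, read 13.53, 13.57 and 13.56 against 13.61, 13.58 and 13.60: the groups did not overlap, yet the difference was only 0.04 ± 0.05. Aldoc, the brain-type aldolase, differed by 0.08 ± 0.07 and Tpi1, triose-phosphate isomerase, by -0.02 ± 0.06. Hk1, the general hexokinase, had 2 rows, at -0.03 ± 0.06 for the brighter, which lists a single GenBank record, and 0.01 ± 0.06 for the row that lists RefSeq transcripts.

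In lower glycolysis Eno3 and Pkm separated the groups, and the other 4 measured genes lay within 0.1 of 0. Eno3 encodes the muscle enolase and read 12.87, 13.06 and 12.99 in wild-type hearts and 13.13, 13.21 and 13.10 in transgenic hearts. All transgenic hearts were above all wild-type hearts, by 0.17 ± 0.07 on average (SE; unadjusted p = 0.0347, limma adjusted p = 0.296). Pkm, the pyruvate kinase of muscle and most other tissues, read 11.56, 11.70 and 11.74 against 11.82, 11.85 and 11.84, a difference of 0.17 ± 0.06 (unadjusted p = 0.0292, limma adjusted p = 0.275). A second Pkm row differed by 0.04 ± 0.06, and the mean of the 2 rows by 0.10. Wild-type replicate 1 was the lowest heart for both genes. Without it the difference was 0.12 for Eno3 (unadjusted p = 0.103) and 0.12 for Pkm (0.0792).

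Pgk1, phosphoglycerate kinase, averaged 11.30 in each group, and its difference of 0.00 had a 95% interval of -0.14 to 0.14. The phosphoglycerate mutases differed by -0.05 ± 0.06 (SE) for Pgam1, the general form, and 0.01 ± 0.08 for Pgam2, the muscle form, and the neuronal enolase Eno2 by 0.06 ± 0.07. For Pgk1 and for Pgam1, 2 of the 3 rows held the same values in every heart, so these rows do not separate near-identical copies and the gene-level values are uncertain.

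The subunits of lactate dehydrogenase lay on opposite sides of 0, without a call. Ldha, the subunit that favours lactate formation, read 12.43, 12.54 and 12.55 in wild-type hearts and 12.59, 12.70 and 12.64 in transgenic hearts. The groups did not overlap, with a difference of 0.14 ± 0.06 (SE, limma adjusted p = 0.358). Ldhb, the subunit abundant in heart, read 12.22, 12.23 and 12.35 against 12.18, 12.25 and 12.25, a difference of -0.04 ± 0.06; its second row was at -0.08 ± 0.06. The within-array log2 value of Ldha minus Ldhb was 0.21, 0.31 and 0.20 in wild-type and 0.41, 0.45 and 0.39 in transgenic hearts. This change of 0.18 had the smallest two-sided exact permutation p that 3 hearts against 3 allow, 0.10, and 0.70 after adjustment over 7 pairs. The remaining pairs (Slc2a1 with Slc2a4, Hk1 with Hk2, Pfkp with Pfkm, Aldoc with Aldoa, Pgam1 with Pgam2 and Pdk2 with Pdk4) changed by -0.20 to 0.10, with exact p of 0.30 to 0.70. Levels of different rows are not comparable, so these values speak of unequal change only.

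Carriers of lactate and pyruvate in the set differed little: Slc16a1, which encodes the lactate carrier MCT1, by 0.06 ± 0.07 (SE), and Slc16a3, the exporter MCT4 of glycolytic cells, by -0.03 ± 0.07. Mpc1, a subunit of the mitochondrial pyruvate carrier, read 12.45, 12.46 and 12.38 in wild-type and 12.42, 12.52 and 12.40 in transgenic hearts. The groups overlapped, with a difference of 0.02 ± 0.06.

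A relative outside the set did change. Slc16a7 encodes MCT2, a monocarboxylate carrier with high affinity for pyruvate and lactate, and belongs to a list of 27 other isoforms of these steps, 25 of them measured. It read 7.39, 7.57 and 7.58 in wild-type hearts and 8.39, 8.53 and 8.19 in transgenic hearts. Every transgenic heart was above every wild-type heart, and the rise was 0.86 ± 0.10 (SE, 1.81-fold, limma adjusted p = 0.00737). The call held in all 16 other settings, with limma adjusted p of 0.000674 to 0.0385. The looser threshold and the row of highest variance left its fit unchanged, so those settings could not undo the call. It was the only called gene of that list. Over all related lists together 1 of 107 measured genes was called, beside 0.993% of all genes. Ldhd, the mitochondrial dehydrogenase of D-lactate, read 8.83, 9.04 and 8.93 against 8.60, 8.54 and 8.68, a difference of -0.33 ± 0.07 (limma adjusted p = 0.0957); Gapdhs, the sperm form of Gapdh, and Slc2a2, the liver carrier GLUT2, both dim, differed by 0.26 ± 0.08 and 0.17 ± 0.08.

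**Figure D2:**
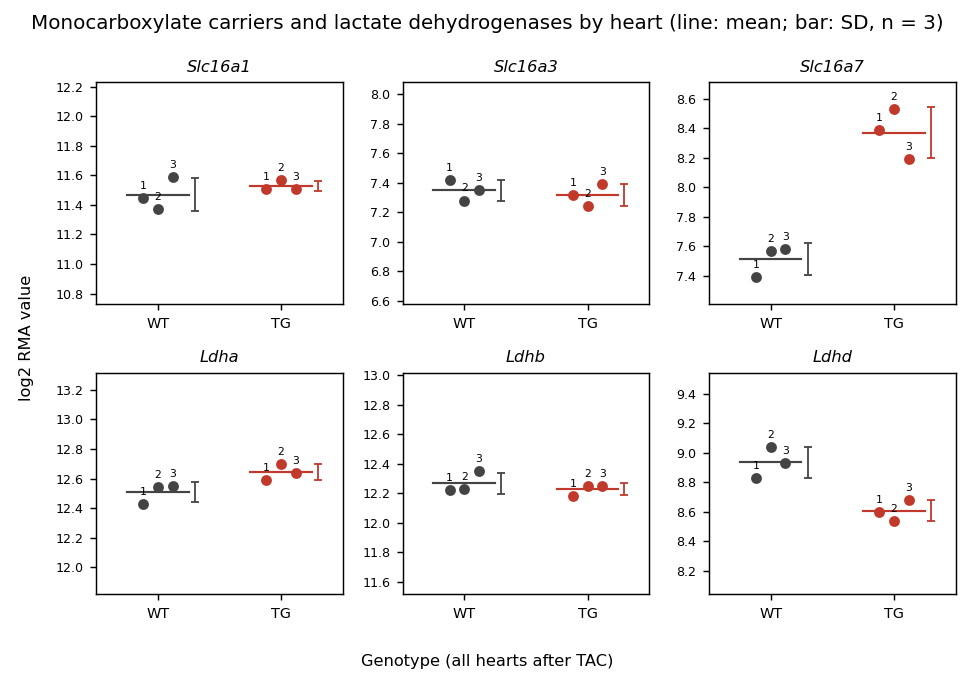
Log2 RMA values of 3 monocarboxylate carriers (top) and 3 lactate dehydrogenase genes (bottom) in each heart; numbers are replicates, lines group means and bars SD (n = 3), and each panel spans 1.5 log2 units. The groups are far apart for Slc16a7 (7.51 against 8.37) and overlap for Slc16a1 and Slc16a3.

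The subunits of pyruvate dehydrogenase overlapped between the groups. Dld, the dihydrolipoamide dehydrogenase shared with other complexes, had the smallest p of the 4 and read 10.27, 10.68 and 10.51 in wild-type and 10.61, 10.77 and 10.49 in transgenic hearts. Its difference of 0.14 ± 0.11 (SE) was 0.03 without wild-type replicate 1 and 0.23 without wild-type replicate 2. Pdha1, the catalytic alpha subunit, differed by -0.06 ± 0.06, Pdhb, its beta partner, by 0.05 ± 0.07 and Dlat, the acetyltransferase core, by 0.05 ± 0.07.

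Among the regulators of the complex, Pdk1 was the one with an unadjusted p below 0.05. Pdk1, a kinase that inactivates pyruvate dehydrogenase, read 10.55, 10.57 and 10.61 in wild-type hearts and 10.47, 10.39 and 10.48 in transgenic hearts. No values overlapped, and the difference was -0.13 ± 0.06 (SE; unadjusted p = 0.0497, limma adjusted p = 0.337). Pdk4, the kinase induced by fasting and fatty acids, read 12.07, 12.50 and 12.59 against 12.63, 12.39 and 12.48. Wild-type replicate 1 stood alone at the low end, and the difference of 0.11 ± 0.13 became -0.05 without it and 0.215 without wild-type replicate 3. Pdk2, the widespread kinase, differed by -0.03 ± 0.05. Pdk3 was dim at 6.80, 6.81 and 6.81 against 6.90, 6.84 and 6.99, without overlap and with a difference of 0.10 ± 0.06. The phosphatases differed by -0.08 ± 0.06 for Pdp1 and -0.18 ± 0.12 for Pdp2; without wild-type replicate 1 Pdp2 was at -0.32 (unadjusted p = 0.0119, limma adjusted p = 0.221), and without wild-type replicate 2 at -0.05 (limma adjusted p = 0.895).

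**Figure D3:**
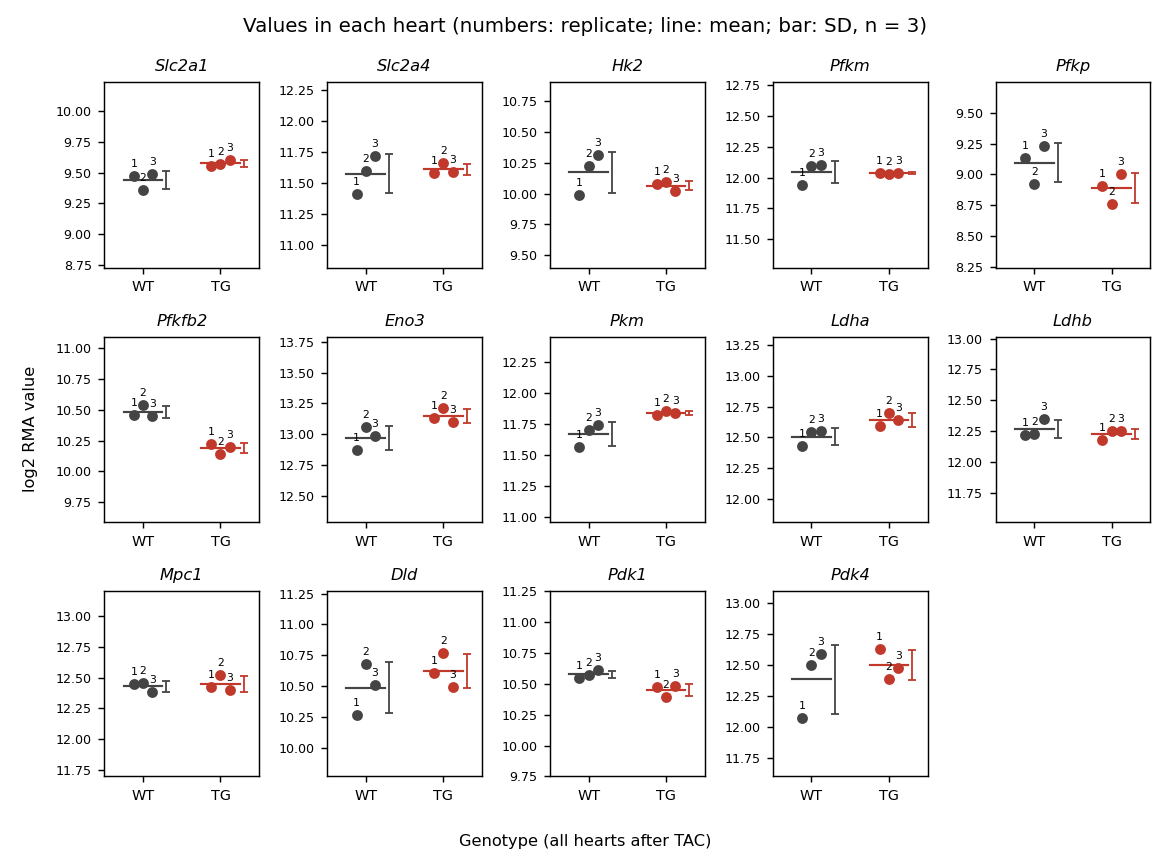
Log2 RMA values in each wild-type (WT) and transgenic (TG) heart for 14 genes of the set; numbers are replicates, lines group means and bars SD (n = 3), and each panel spans 1.5 log2 units. The groups are apart for Pfkfb2, Slc2a1, Eno3, Pkm, Ldha and Pdk1, and overlap for the other 8 genes.

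Counted over the set, the 3 transgenic values lay above all wild-type values in 6 of 35 genes (17.1%; Slc2a1, Aldoa, Eno3, Pkm, Ldha and Pdk3) and below them in 2 (5.71%; Pfkfb2 and Pdk1). Over all genes the shares were 7.79% above and 12.4% below.

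Much of the spread in this set lay among the wild-type hearts. The mean over the 35 genes was 10.22, 10.30 and 10.33 in the wild-type hearts and 10.29, 10.30 and 10.29 in the transgenic hearts. Wild-type replicate 1 was the lowest of its group in 20 genes (57.1%) and wild-type replicate 3 the highest in 20, against 33.3% and 30.7% of all genes. Fibroblast markers ran the other way: their mean level was 10.48 in wild-type replicate 1, 10.16 and 10.21 in the other wild-type hearts and 10.29 to 10.32 in the transgenic hearts, with Postn, a matrix protein of activated fibroblasts, at 11.39 against 10.37 and 10.57. Endothelial markers, at 10.29, 10.25 and 10.18, were also highest in wild-type replicate 1 of their group. So were adipocyte, neutrophil and skeletal muscle markers. Smooth muscle and pericyte, macrophage, lymphocyte and red cell markers were not, and cardiomyocyte markers were at 13.63 in wild-type replicates 1 and 3. The part of these cells in the members' values was not tested. Without wild-type replicate 1 none of the 35 genes was called, beside 0.569% of all rows. An unadjusted p below 0.05 was then reached by 3 of 35 (Hk2, Pfkfb2 and Pdp2), against 14% of all genes. The median difference of the 35 genes was 0.01.

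**Figure D4:**
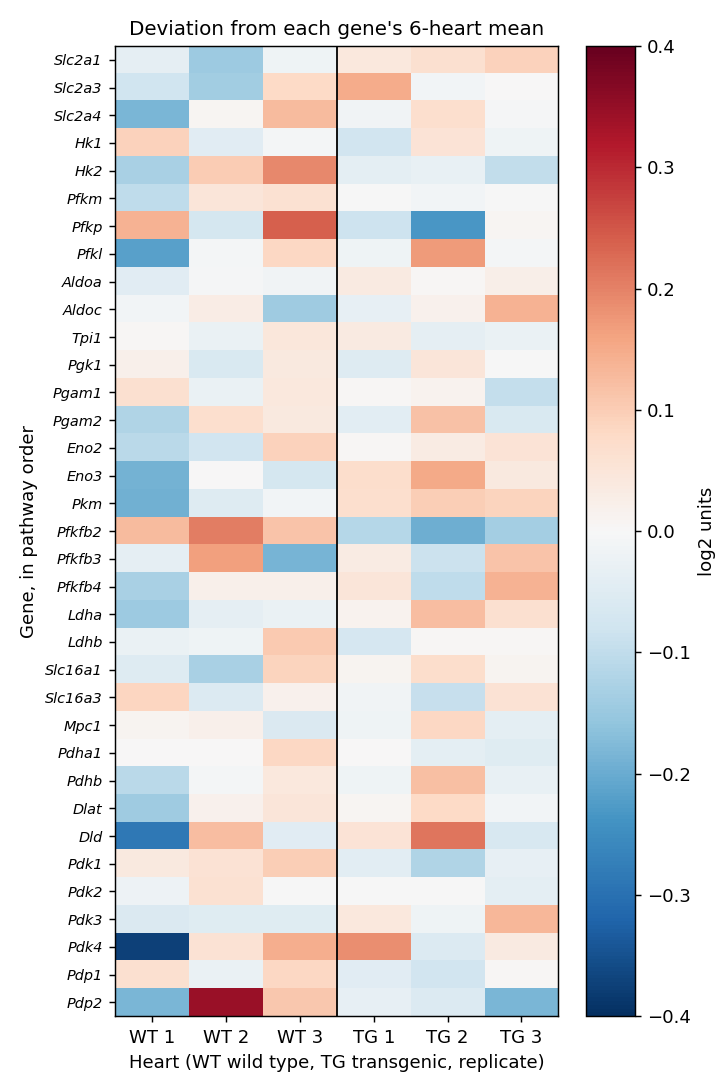
Each cell is the log2 deviation of 1 heart from the 6-heart mean of a gene, for the 35 genes in pathway order (WT wild type, TG transgenic). The column of wild-type replicate 1 is mostly below the mean, with Pdk4 and Dld lowest, while Pfkfb2 is above it in the 3 wild-type hearts and below it in the 3 transgenic hearts.

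Genes that feed or steer the pathway were read from 4 further lists, and none of their measured members was called in the reported analysis. The lists were chosen with earlier results of these data known, so the shares below only describe their genes. Of 25 genes of insulin and AMPK signalling and GLUT4 transport, 6 were lower and 2 higher at an unadjusted p below 0.05. Together these were 32%, beside 14.6% of all genes. The median level of this list was 9.92, where the median gene lay at 7.10. Irs1, an adaptor of the insulin receptor, read 8.89, 9.13 and 8.97 in wild-type and 8.65, 8.70 and 8.66 in transgenic hearts, a difference of -0.33 ± 0.07 (SE, limma adjusted p = 0.095) without overlap. Its row of highest variance, a different row, was at -0.21 (limma adjusted p = 0.496), and the mean of its rows at -0.27 (limma adjusted p = 0.217). The limma adjusted p of the first row fell below 0.05 in 3 other settings. These were without the dimmest 40% of rows (0.0364), the trended and robust prior (0.0242) and array weights (0.049). The AMPK subunits Prkab2 and Prkag2 differed by -0.23 ± 0.08 and 0.18 ± 0.05, and the insulin-signalling kinase Akt2 by 0.18 ± 0.07.

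Of 27 transcription regulators, 5 were lower and 1 higher at that level, together 22.2%. Besides Hif1a, the lower ones of smallest p were Nr3c1, the glucocorticoid receptor, at -0.29 ± 0.07 (SE, limma adjusted p = 0.0987) and Mef2c, a muscle transcription factor that acts on GLUT4, at -0.23 ± 0.06. The higher one was Ppargc1a, the coactivator of mitochondrial genes, which read 11.42, 11.24 and 11.42 against 11.78, 11.67 and 11.53, a difference of 0.30 ± 0.08 (limma adjusted p = 0.16) without overlap. Hif1a differed by -0.25 without wild-type replicate 1.

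The 12 measured genes of the pentose phosphate, hexosamine and polyol branches had a median difference of 0.01, and 2 of them (16.7%) had an unadjusted p below 0.05. The paired enzymes that open the hexosamine branch lay on opposite sides, Gfpt1 at -0.16 ± 0.06 (SE) and Gfpt2 at 0.27 ± 0.11. Gnpnat1 and Pgm3, later enzymes of that branch, were at -0.14 ± 0.06 and -0.12 ± 0.06. Of 18 genes of anaplerosis and the redox shuttles, 2 were lower and 1 higher at that level, together 16.7%. Gpd1, the cytosolic glycerol-3-phosphate dehydrogenase, read 9.66, 9.60 and 9.69 against 9.33, 9.38 and 9.49. That is -0.25 ± 0.06 (limma adjusted p = 0.133) without overlap. Pck1, which makes phosphoenolpyruvate, was at -0.28 ± 0.08, and the transaminases Gpt and Got1 were at 0.21 ± 0.08 and 0.13 ± 0.06.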

How the data were processed

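RNA of 6 hearts, 3 per genotype, was measured on 1 array each. The deposited values are log2 intensities; the submitters' processing notes name RMA and Partek, without versions, settings or a genome build. RMA makes array distributions alike and compresses dim and very bright rows, so a global shift cannot be seen. The platform annotation gave exactly 1 symbol to 21789 of 28853 rows, several to 1621 and none to 5443.

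All 21789 rows were fitted at once with limma 3.58.1 in R 4.3.3 (lmFit, eBayes, default prior with 4.1 degrees of freedom, no covariate), and p-values were adjusted over these rows. The members and lists were chosen with earlier results of these data known, so none was adjusted over a list alone. Differences are transgenic minus wild type, with the moderated SE and 95% interval. Precision is set by having 3 arrays a group; the median SE was 0.0731. Simulated data with 100 rows each changed by 0.5 and 1 gave recoveries of 84% and 100% over 21789 rows, with 5.15% of calls wrong. The simulated noise was normal, independent between rows and hearts, and scaled by the moderated variances of the fit. These rates therefore need not hold for the real hearts. Isoform pairs used exact permutation. Per-heart values are given for members with an unadjusted p below 0.05, the smallest p of each role and Slc2a1, Slc2a4, Hk2, Pfkm, Pfkfb2, Ldha, Ldhb and Pdk4; of each related list at most 4 genes of smallest p are named. Aldoa, Pdk3, Pfkfb3, Cd68 and Postn values were added after they had been seen. Other settings varied normalization, filter, prior, weights, rows, threshold, hearts left out and the replicate number as a block; figures used matplotlib 3.10.9.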

Additional observations from a re-analysis of the deposited data

How the results depend on the processing

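No member passed limma's adjusted p below 0.05 in the reported analysis. Pfkfb2 made the count 1 in some of the other settings. These were without the dimmest 40% of rows, with a trended and robust prior, with array weights, and at the looser threshold of 0.10. Of all rows fitted, 3.77%, 2.66%, 1.38% and 2.18% were called in these settings, in that order, against 0.959% in the reported analysis. Without the dimmest rows 32 members were measured, otherwise 35. In the rest of the settings the count was 0. The median difference of the members stayed between 0.005 and 0.053. Of the related lists, only the named genes were followed over the settings. Besides Slc16a7, limma's adjusted p fell below 0.05 in 3 settings for Irs1 and in 2 each for Ldhd and Nr3c1. It did so in 1 setting each for Hif1a, Mef2c, Ppargc1a and Gpd1. The 209 called rows of the whole table became 493 without the dimmest 40% of rows (184 higher, 309 lower), 579 with the trended and robust prior (240 higher, 339 lower), 476 at an adjusted p below 0.10 (230 higher, 246 lower) and 84 to 147 with 1 heart left out; the reported split was 113 higher and 96 lower. With the replicate number as a block 97 rows were called, 0 of them members, and Pfkfb2 had a limma adjusted p of 0.16. Same-numbered hearts deviated together at r = 0.155, -0.011 and -0.104, and no label ties them, so no pairing was used.

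Changes of sign occurred in 12 members, whose reported difference was at most 0.113 in size; Pgk1, reported at 0.00, has no sign of its own and ran from -0.03 to 0.025. A further quantile normalization gave 0.0211 for Pfkm, 0.0247 for Tpi1, 0.00361 for Ldhb, 0.00278 for Slc16a3 and 0.0158 for Pdk2. Centring arrays on medians gave 0.0133 for Pfkm and 0.00333 for Tpi1. Array weights gave -0.0392 for Pgam2, 0.00355 for Slc16a3 and -0.00108 for Mpc1. Leaving out 1 heart gave -0.05 to 0.105 for Slc2a4, -0.06 to 0.0133 for Hk1, -0.0583 to 0.0217 for Pfkm, -0.0383 to 0.00167 for Tpi1, -0.0483 to 0.0467 for Pgam2, -0.0433 to 0.132 for Pfkfb3, -0.0633 to 0.00167 for Ldhb, -0.07 to 0.005 for Slc16a3, -0.02 to 0.04 for Mpc1, -0.00833 to 0.0867 for Dlat and -0.045 to 0.215 for Pdk4. It also turned 3 isoform pairs: -0.0133 to 0.0833 for Aldoc minus Aldoa, -0.127 to 0.0133 for Pgam1 minus Pgam2 and -0.248 to 0.00167 for Pdk2 minus Pdk4. The cause was not tested. With 3 hearts a group, member differences of about 0.1 lie within the intervals, and a value short of the threshold does not show equal levels.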
